A study of Mus musculus with 378 samples.

Results

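Immediate early genes were followed in the pancreatic islets of female and male mice through the members Fos, Fosb, Jun, Junb, Egr1, Ier2, Nr4a1, Btg2, Zfp36 and Dusp1. All 10 were found by symbol among the 22180 genes of the deposited tables, and all 10 passed the filter on low counts. The mice belonged to the Diversity Outbred stock, in which each animal carries its own mixture of founder genomes, so no library had a genetic duplicate. Every mouse was on a high-fat, high-sugar diet (45% fat), and no lean or untreated group was analysed here. Poly(A) RNA of the islets was sequenced, with 1 library per mouse. Age is not among the labels used here, nor is the handling of the islets before freezing. The titles number the mice, and 4 bands of 100 mouse numbers, starting at mouse 21, were treated as the nearest thing to a batch. The labels do not say what a band was. The bands held 46, 46, 49 and 47 females and 45, 48, 50 and 47 males.

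The genes lie on 8 chromosomes of GRCm38. On the plus strand are Fos (ENSMUSG00000021250, chr12:85473890-85477273), Egr1 (ENSMUSG00000038418, chr18:34859823-34864984) and Nr4a1 (ENSMUSG00000023034, chr15:101266846-101274792). On the minus strand are Fosb (ENSMUSG00000003545, chr7:19302696-19310051), Jun (ENSMUSG00000052684, chr4:95049034-95052222), Junb (ENSMUSG00000052837, chr8:84976909-84978748) and Ier2 (ENSMUSG00000053560, chr8:84661331-84662852). So are Btg2 (ENSMUSG00000020423, chr1:134075170-134079120), Zfp36 (ENSMUSG00000044786, chr7:28376784-28380253) and Dusp1 (ENSMUSG00000024190, chr17:26505590-26508519). Jun overlaps the antisense gene Junos, and Zfp36 overlaps the antisense gene Gm44710. Whether the counting used strand is unknown here, so reads of these partners cannot be told apart. Their own rows were small, with a median of 28.5 counts for Junos and 7 for Gm44710, against 2989 for Jun and 1697 for Zfp36. Jun had fractional counts in every library, and Zfp36 in all but 0.265% of them, while the other 8 genes had whole counts throughout.

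Immediate early genes are transcribed within minutes of a stimulus by factors that the cell already holds, without new protein synthesis. Mitogens, calcium, cyclic AMP and stress reach them through MAP kinases, serum response factor and CREB, and their RNAs decay quickly. In beta cells they are known to respond to glucose and to incretin hormones. Fos, Fosb, Jun and Junb encode subunits of the transcription factor AP-1. Egr1 encodes a zinc finger transcription factor, Nr4a1 an orphan nuclear receptor and Ier2 a small nuclear protein. Btg2, Zfp36 and Dusp1 encode proteins that restrain the response: an antiproliferative partner of the deadenylase complex, tristetraprolin, which destabilises AU-rich RNAs, and a phosphatase that inactivates MAP kinases.

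The sequence before the starts of the genes is shown as background, and its part in their levels or correlations was not tested. RefSeq promoters (GRCm38.p6) were matched by symbol for 8 of the 10, all but Egr1 and Ier2. The 250 bases before the start were searched on both strands. Capitals mark TGACG, the core of a cyclic AMP response element (CRE), in either orientation, so that CGTCA is the same motif on the other strand. In Zfp36 they mark a CArG box, the serum response factor motif. Fos is at chr12:85473640-85473889 and Nr4a1 at chr15:101266596-101266845, both on the plus strand. Btg2 is at chr1:134079156-134079405 and Dusp1 at chr17:26508520-26508722, both on the minus strand, the Dusp1 stretch ending before an annotated exon. The Zfp36 stretch, chr7:28379267-28379296 on the minus strand, lies inside the gene span given above, because the RefSeq start used here is downstream of the deposited one.
Fos: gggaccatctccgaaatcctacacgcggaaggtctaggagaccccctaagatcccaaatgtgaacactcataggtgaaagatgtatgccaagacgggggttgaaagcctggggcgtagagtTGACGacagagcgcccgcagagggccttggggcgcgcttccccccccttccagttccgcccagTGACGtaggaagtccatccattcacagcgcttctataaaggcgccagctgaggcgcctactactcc
Nr4a1: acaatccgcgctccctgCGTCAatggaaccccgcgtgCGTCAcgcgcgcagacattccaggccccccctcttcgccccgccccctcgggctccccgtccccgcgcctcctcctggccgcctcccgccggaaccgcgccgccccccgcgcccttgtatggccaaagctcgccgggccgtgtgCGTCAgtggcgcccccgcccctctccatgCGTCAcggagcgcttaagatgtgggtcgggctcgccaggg
Btg2: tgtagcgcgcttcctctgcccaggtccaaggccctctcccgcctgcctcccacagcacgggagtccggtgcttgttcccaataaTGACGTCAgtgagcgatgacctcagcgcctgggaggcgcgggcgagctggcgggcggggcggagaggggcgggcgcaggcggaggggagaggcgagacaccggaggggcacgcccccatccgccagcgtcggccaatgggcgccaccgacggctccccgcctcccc
Dusp1: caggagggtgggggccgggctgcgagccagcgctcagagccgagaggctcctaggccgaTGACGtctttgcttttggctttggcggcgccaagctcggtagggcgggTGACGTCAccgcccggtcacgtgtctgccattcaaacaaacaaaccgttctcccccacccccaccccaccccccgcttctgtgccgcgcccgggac
Zfp36: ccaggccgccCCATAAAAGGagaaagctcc

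TGACG occurred in 6 of the 8 promoters (Fos, Fosb, Junb, Nr4a1, Btg2 and Dusp1), against 17.8% of all 32851 RefSeq promoters of the same length. Nr4a1 held it 4 times and Fos 2 times. The full palindrome TGACGTCA, which contains TGACG on each strand, was in Btg2 and Dusp1, and in 1.55% of all promoters. A CArG box was in Zfp36 alone among the 8 within this window, and in 1.47% of all. Sites farther upstream, and the promoters of Egr1 and Ier2, were not searched. GCGNGGGCG, a motif bound by EGR proteins, was in 4 of the 8 (Fosb, Nr4a1, Btg2 and Zfp36) against 4.7%. GGGCGG, the GC box, was in 7 of the 8, all but Junb, against 32.7%. It can overlap GCGNGGGCG. CCAAT was in Jun, Junb and Btg2 (33.8% of all), and TATAAA in Fos (12.4%). TGANTCA, the AP-1 motif, was in 0 of the 8 within this window and in 6.75% of all promoters. The GC content of the windows ran from 58.4% (Fos) to 74.4% (Nr4a1), Zfp36 not counted, and the shares were not adjusted for it. A match describes letters in the reference genome and not the genomes of these mice, and carries no evidence of binding.

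Depth was ample for these genes. Libraries held 15.1 M to 68.8 M counts (median 34.8 M), and no library had fewer than 100 counts of any of the 10 genes. Counting error made up between 0.112% (Fosb) and 1.38% (Ier2) of the variance between mice of the same sex and band. Libraries of band 4 were shallower, with a median of 24 M counts against 36.4 M to 37.2 M in bands 1 to 3. No female library had a count of the Y-linked genes Ddx3y, Eif2s3y, Kdm5d or Uty (0 libraries), and all 190 male libraries did. The beta cell genes Ins1, Ins2, Iapp, Pdx1, Slc2a2 and Ucn3 were detected in every library. The titles give each library a mouse of its own, so the spread described here holds differences between animals and technical error together.

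Levels are given in CPM, counts scaled to library size with TMM factors. Fos ran from 11 to 294.6 CPM with a median of 71.6. Fosb had the widest range, from 4.28 through a median of 56.5 to 560.7 CPM. Its highest mouse thus exceeded its lowest 131.1-fold. Jun ran from 22.9 through 82.4 to 488.5 CPM. Junb ran from 6.43 through 40.3 to 489.8 CPM. Egr1 lay between 13.2 and 285.3 CPM (median 87.7). The AP-1 subunit genes and Egr1 were therefore present in every mouse, but at levels between 21.3-fold (Jun) and 131.1-fold (Fosb) apart from the lowest to the highest mouse. These ranges pool the 4 bands, whose levels differ as described below. Within band 4 alone Junb ran from 116.7 to 489.8 CPM. Ier2 was the lowest of the 10, from 4.89 through 15.7 to 74.8 CPM. Nr4a1 ran from 9.62 through 61.8 to 383.8 CPM. The 3 genes that restrain the response had narrower ranges. Btg2 ran from 77.6 through 154.1 to 389.9 CPM, Zfp36 from 18.1 through 51.6 to 160.4, and Dusp1 from 12.8 through 44.8 to 124.5.

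**Figure D1:**
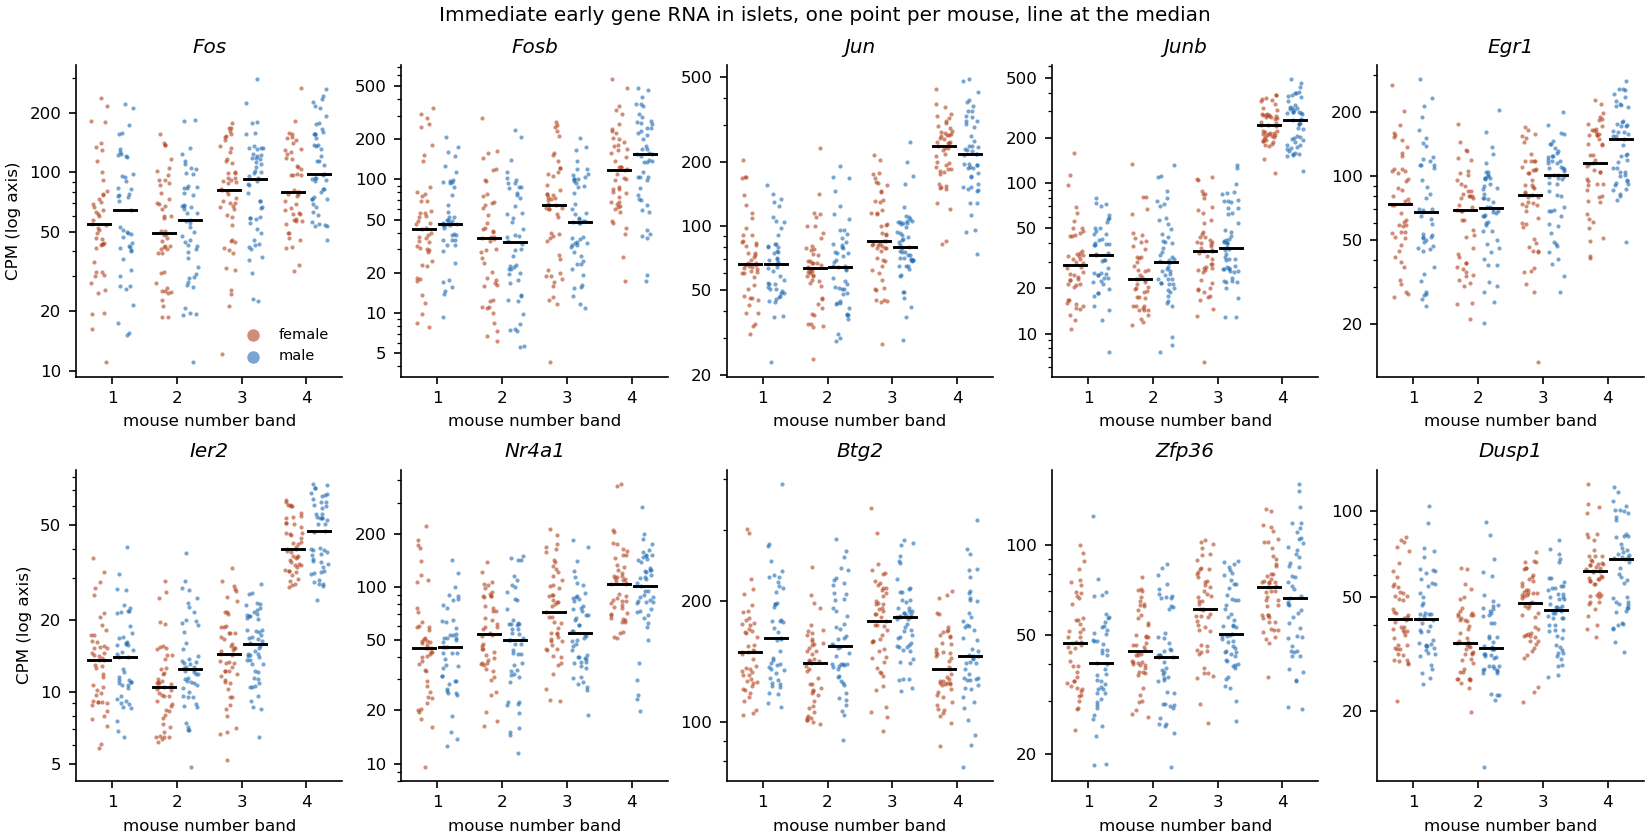
CPM of each immediate early gene (log axis) against mouse number band, 1 point per mouse, females in red and males in blue, with a line at the median of each sex and band (45 to 50 mice each). Within a band most genes spread over several-fold, the sexes overlap, and Junb, Jun and Ier2 are higher in band 4.

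To compare genes, CPM was divided by the length of the longest transcript. Per kilobase, Btg2 was highest with a median of 56.2 CPM, ahead of Fos (34), Jun (25.8), Nr4a1 (24.2) and Junb (22.3). Egr1 (19.6), Dusp1 (19.4), Zfp36 (18.5), Fosb (14.9) and Ier2 (10.3) followed. Btg2 exceeded Fos in 84.9% of mice. No other neighbours in this order kept their place in more than 66.9% of mice, and the SD of their log2 ratio between mice, 0.38 to 1.21, was larger than its median for each of them. The order below Btg2 is therefore loose, and its first place did not hold in band 4, where Junb (137.9) and Jun (71.3) were above it (52.5).

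With the means of sex and band removed, the spread between mice differed from gene to gene. On the log2 scale the SD of Fosb was 1.23, larger than that of 96.3% of the 14332 genes with a mean of at least 1 CPM, and its 90th percentile was 9.13-fold above its 10th. Fos (SD 0.85, 4.30-fold), Nr4a1 (0.82, 4.05-fold), Junb (0.76, 3.49-fold) and Egr1 (0.73, 3.65-fold) followed, each wider than 89% to 92.1% of genes. Jun had an SD of 0.61 and Ier2 of 0.54. The restraining genes were at the narrow end: Zfp36 at 0.50, Dusp1 at 0.44 and Btg2 at 0.36, with Btg2 still wider than 63% of genes. No ordering of genes by spread was tested.

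The spread was shared by whole mice. The top and bottom 10% of each gene were cut within each group of sex and band, on deviations from its mean. In 3 mice all 10 genes were in the top 10%: DO-050 (female, band 1), DO-215 (male, band 2) and DO-357 (female, band 4). Mouse DO-357 had 266.3 CPM of Fos, 560.7 of Fosb, 442.1 of Jun and 383.8 of Nr4a1; the females of band 4 had medians of 79.6, 118.7, 238.1 and 104.1 CPM. In 14 mice at least 8 genes were in the top 10%, and in 29 mice at least 5. At the other end 6 mice had at least 8 genes in the bottom 10%, and 29 had at least 5. All 10 genes were above the mean of sex and band in 67 mice and below it in 54. Only 10 mice combined a gene in the top 10% with a gene in the bottom 10%. Each of the 8 groups of sex and band held 3 to 5 mice with at least 5 genes in the top 10%. Because the cut was made within groups, an even spread over them follows largely from the definition.

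Mouse DO-246, a female of band 3, stood apart at the low end, with the largest negative deviation of all mice for 7 of the 10 genes. Its values were 12.1 CPM of Fos, 4.28 of Fosb, 27.9 of Jun, 6.43 of Junb and 13.2 of Egr1. The medians of the other females of band 3 were 82.1, 64.4, 85.4, 35.7 and 82.5 CPM. Nr4a1 (26.4) and Btg2 (102.8) were low but not the lowest of that group, whose other females reached 22.8 and 95.3 CPM. Its total of 30.4 M counts was the lowest of its group, whose median was 35.8 M. Its summed alpha cell genes stood at 45690 CPM (group median 24850, highest 57040), and its summed beta cell genes at 111100 CPM (129900). The part of these values in its low level was not tested. Without this mouse, a setting chosen after its values were seen, the median r over the 45 pairs was 0.628 and all 45 stayed positive, and Ier2 (-0.14), Btg2 (-0.15), Nr4a1 (0.21) and Zfp36 (0.14) were called for sex as with it (edgeR, adjusted p from 0.000482 to 0.024).

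Mutual correlations were measured across all mice on log2 CPM with the means of sex and band removed. All 45 pairs of the 10 genes were positively correlated, with Pearson r from 0.382 to 0.877 (median 0.635) and a median Spearman rho of 0.625. Each pair passed the permutation test (p = 1e-05, the smallest that 100000 resamples within sex and band can give, adjusted p = 4.48e-05 for r and 4.74e-05 for rho). Adjustment was over all 143465 pairs of a member with a gene. Positive correlations were called for 17.5% of all genes with Egr1, 20.5% with Fos, 20.8% with Btg2, 22.7% with Dusp1, 23.8% with Nr4a1, 24.7% with Zfp36, 25.9% with Fosb, 27.3% with Ier2, 27.7% with Jun and 28.5% with Junb. Among all pairs of the 14332 genes the median r was -0.00195, and 0.0826% of pairs reached the median of the 45. Genes share libraries and the 10 were chosen as a known family, so this comparison is a description.

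**Figure D2:**
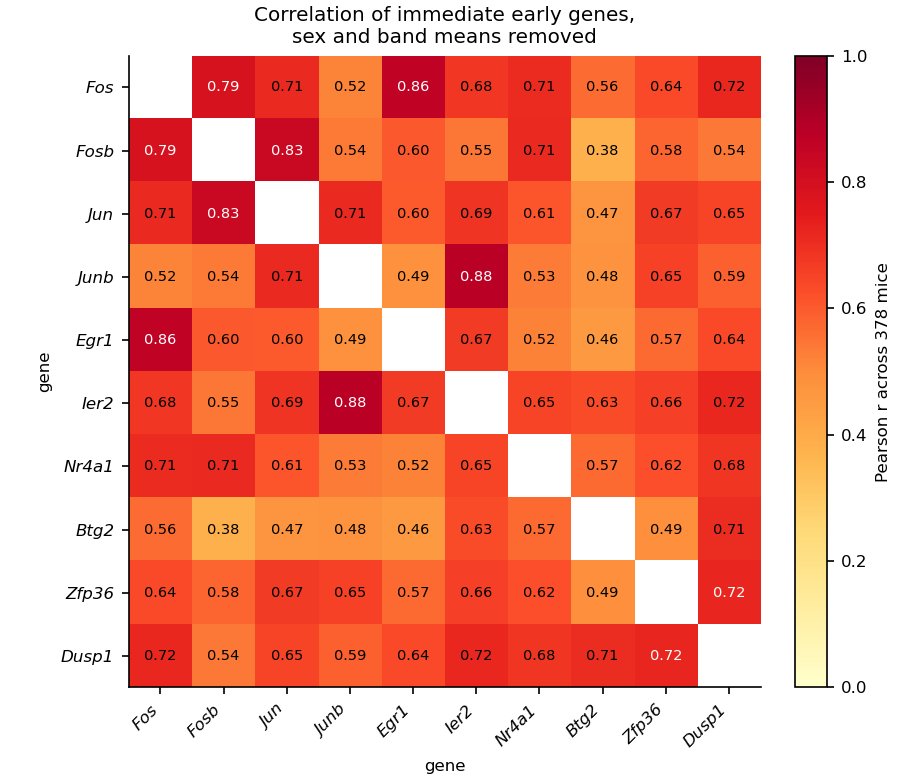
Pearson r of each pair of immediate early genes across all mice, from log2 CPM with the means of sex and band removed; the colour scale runs from 0 to 1. All 45 values are positive, the highest for Junb with Ier2 (0.88) and the lowest for Fosb with Btg2 (0.38).

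Within this agreement some genes were closer than others. Junb and Ier2 were the closest pair (r = 0.877, rho = 0.869), and the lowest r in any of the 8 groups of sex and band was 0.821. Both genes lie on chromosome 8, and their transcripts had the highest GC content of the 10 (62.6% and 60.9%). The part of position and of GC content in their correlation was not tested. Fos and Egr1 followed (r = 0.862, rho = 0.851), then Fosb and Jun (r = 0.835, rho = 0.825), which encode partners within AP-1, and Fos and Fosb (r = 0.788). Fos and Junb, also AP-1 genes, were less close (r = 0.519), and so were Fosb and Junb (0.537). Dusp1 was closest to Zfp36 (0.722), and Btg2 to Dusp1 (0.705). These differences between correlations were not tested.

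Averaged over the other 9 genes, r was 0.688 for Fos, 0.679 for Ier2, 0.662 for Dusp1 and 0.661 for Jun. It was lowest for Btg2 (0.528), whose weakest partner was Fosb (r = 0.382, rho = 0.359). A single axis carried 66.7% of the variance of the 10 standardised genes, and the next carried 8.5%. Without the 2 mice farthest from the median of the first gene of a pair, no r moved by more than 0.0227, and the median was 0.629. Since only 2 mice were left out per pair, the part of the wider set of high and low mice was not tested. In each of the 8 groups of sex and band all 45 values were above 0, the lowest being 0.113 for Junb with Btg2. Leaving the band means in gave r from 0.109 to 0.957 (median 0.683).

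**Figure D3:**
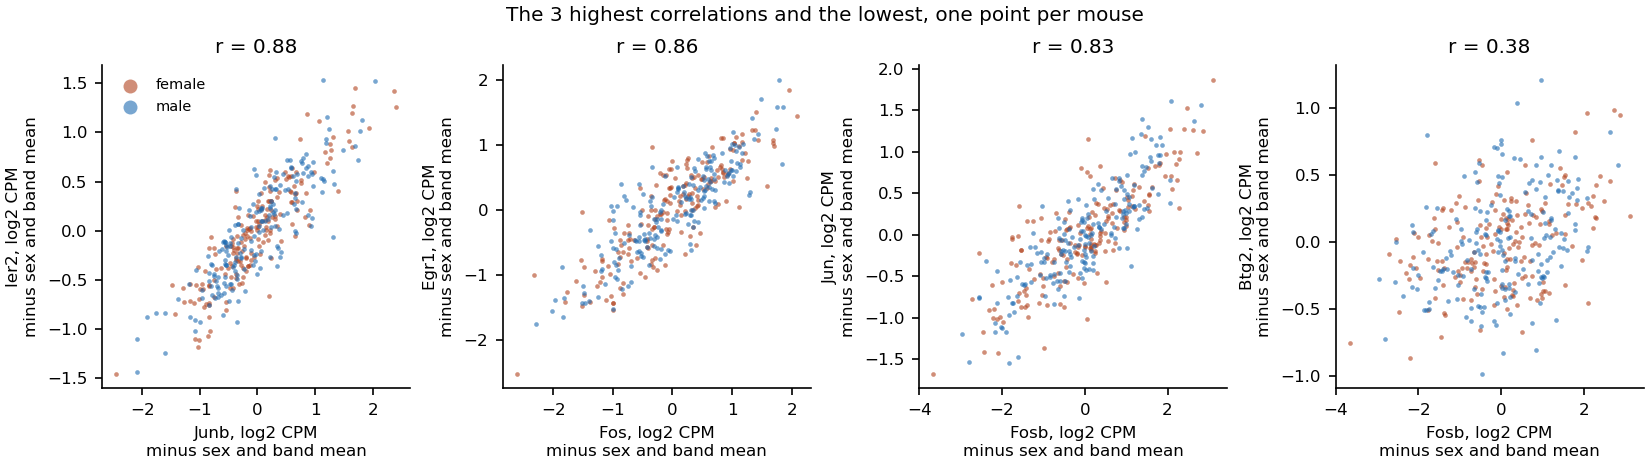
Log2 CPM minus the mean of sex and band for 4 pairs of genes, 1 point per mouse, females in red and males in blue. The points of Junb with Ier2 (r = 0.88), Fos with Egr1 (0.86) and Fosb with Jun (0.83) follow a line in both sexes, while those of Fosb with Btg2 (0.38) scatter widely.

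With the means of sex and band removed, total counts had little relation to the levels. The correlation of log2 total count with each gene lay between -0.0316 (Fosb) and 0.0903 (Dusp1). None of the 10 was called (adjusted permutation p from 0.141 to 0.992). In single groups of sex and band r ran from -0.389 (Jun) to 0.355 (Dusp1). Depth and levels both differed between bands, and these values leave that difference out. Markers of other cells were also set beside the members. The macrophage score, the mean log2 CPM of 6 genes (Cd68, Adgre1, C1qa, C1qb, Csf1r and Lyz2), correlated with all 10 members, from 0.205 (Junb) to 0.373 (Zfp36), each with adjusted permutation p of at most 0.000287 and rho from 0.201 to 0.359. Without the 2 farthest mice r was 0.198 to 0.359, and within groups of sex and band it ran from -0.0563 to 0.616. Of these marker genes 5 of 6 correlated positively with at least 5 members, none was at 0 in any library, and their summed level was 32.9 to 106.1 CPM in females and 30.9 to 139.6 CPM in males. The duct score was called with 7 of the 10 genes and reached 0.282 (Zfp36) and 0.263 (Dusp1), and the endothelial score with 6, reaching 0.288 (Btg2) and 0.243 (Fosb). The alpha cell score was negative where called, in 4 of the 10, down to -0.274 (Fosb) and -0.260 (Jun), and the beta cell score ran from -0.182 (Zfp36) to 0.199 (Fosb). The stellate score was called with 6 and reached 0.209 (Btg2). The acinar score reached at most 0.157 (Zfp36). The part of these cell types in the levels was not tested beyond the fit below. Removing acinar, duct, endothelial, stellate, macrophage and lymphocyte scores as well left all 45 pairs called and a median r of 0.601. The lymphocyte score rested on 1 gene, Cd79a, since the others of its list did not pass the filter. Beta, alpha, delta and PP cell scores were not removed. In whole islets, a change in the share of a cell type and a change in RNA per cell cannot be told apart.

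Of the 14322 other genes with a mean of at least 1 CPM, 859 (6%) were positively and 1162 (8.11%) negatively correlated with all 10 members. The 10 genes with the highest mean r were Gem, Irs2, Csrnp1, Atf3, Per1, Fosl2, Slc2a1, Slc25a25, Gadd45b and Socs3. Each was called with all 10 members (permutation test, adjusted p = 4.48e-05). Gem, which encodes a small GTPase that inhibits calcium channels, led with a mean r of 0.661 and values from 0.525 to 0.761. Irs2, encoding an insulin receptor substrate, had 0.649, and Csrnp1, encoding a nuclear protein, 0.644. Atf3, a stress-induced partner of AP-1, had 0.627, with values from 0.449 to 0.897. Per1, a clock gene that CREB is known to activate, had 0.615, and the AP-1 gene Fosl2 had 0.613. The glucose transporter gene Slc2a1 (0.610), the mitochondrial carrier gene Slc25a25 (0.606), the growth arrest gene Gadd45b (0.604) and the cytokine feedback gene Socs3 (0.604) completed the group.

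**Figure D4:**
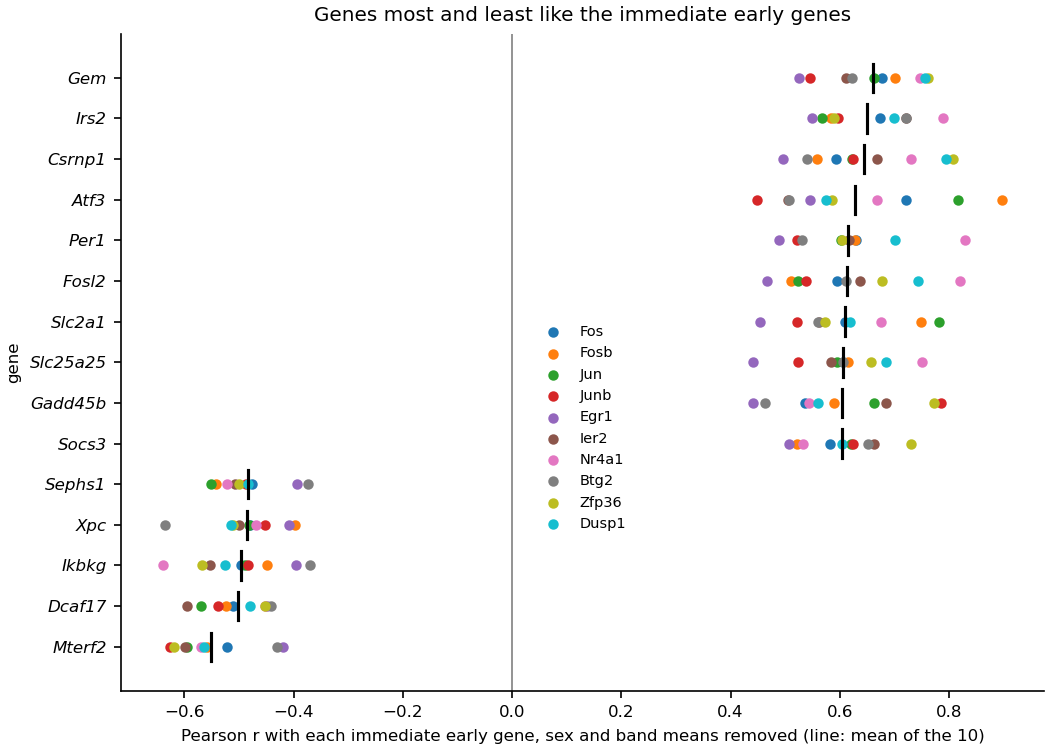
Pearson r of each of the 10 immediate early genes (coloured points) with the 10 genes of highest and the 5 genes of lowest mean r, across all mice with the means of sex and band removed; the black line is the mean. Gem (0.661) has the highest mean, Mterf2 (-0.550) the lowest, and no gene shown has points on both sides of 0.

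The genes with the lowest mean r were Mterf2, of the mitochondrial termination factor family (-0.550), Dcaf17 (-0.501), Ikbkg, the regulatory subunit of the IkB kinase (-0.497), the DNA repair gene Xpc (-0.485) and Sephs1 (-0.484). All 5 were negatively correlated with all 10 members.

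Each member also had correlates of its own, named as the 2 closest genes. Atf3 was closest to Fosb (r = 0.897, rho = 0.895), to Jun (r = 0.816, rho = 0.808) and to Fos (r = 0.720, rho = 0.705). Fosb was next closest to Maff (0.784), Jun to the GTPase gene Rhob (0.785) and Fos to the heat shock co-chaperone gene Dnajb1 (0.692). Junb and Ier2 had the same closest genes, the transcription factor gene Cebpd (r = 0.882 and 0.794) and Gadd45g (0.857 and 0.741). For Junb with Cebpd, r within groups of sex and band ran from 0.518 to 0.931. Egr1 had the weakest correlates outside the family, Irs2 (0.550) and Atf3 (0.546), although its correlation with Fos was 0.862. Nr4a1 was closest to Per1 (r = 0.829, rho = 0.810) and Fosl2 (0.821). Btg2 was closest to the clock-linked repressor gene Bhlhe40 (0.738) and Irs2 (0.722). Zfp36 was closest to Csrnp1 (0.808) and Gadd45b (0.773), and Dusp1 to Csrnp1 (0.794) and Gem (0.756). All 20 had permutation p = 1e-05 and adjusted p = 4.48e-05, and without the 2 farthest mice r lay between 0.532 and 0.894.

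Related gene lists were read by how many of their genes were positively correlated with at least 5 members, which 23% of the 14322 other genes were, while 28% were negatively so. Of the other AP-1 family genes 9 of 9 measured genes were (median of their mean r 0.418, against -0.00957 over all genes), led by Atf3, Fosl2, Maff (0.546) and Mafk (0.540). All 6 EGR and NR4A relatives were, among them Nr4a3 (0.555), Egr3 (0.491), Nr4a2 (0.470) and Egr2 (0.408). Other primary response genes followed with 34 of 37 (median 0.395), including Csrnp1, Gadd45b, Gadd45g (0.591) and Trib1 (0.585). MAP kinase feedback genes, which encode phosphatases and Sprouty proteins, were all positively correlated (11 of 11, median 0.434), led by Dusp5 (0.589), Spred2 (0.505), Dusp4 (0.488) and Dusp10 (0.470).

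The regulators upstream of the family were less uniform, with a median of mean r of 0.0102. With at least 5 members 7 of 16 genes were positively correlated (43.8%, against 23% of other genes) and 4 negatively (against 28%). Their score was called positive by r with every member but Btg2 (-0.0773), up to 0.373 (Jun). For Dusp1 the call held by r (0.152) and not by rho (0.108). The CREB coactivator gene Crtc2 (0.513) and Srf, encoding serum response factor (0.443), were the closest. Creb1, encoding CREB itself, had the lowest mean of those named here (-0.278, named after its value was seen), followed by the ternary complex factor gene Elk1 (-0.239), and both were negatively correlated with all 10 members.

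Heat shock genes were positively correlated in 10 of 11 cases (median 0.4). Bag3 had a mean r of 0.593, Dnajb1 of 0.568, Hspa1a of 0.565 and Hspa1b of 0.560. Hspa1a and Hspa1b are near-identical copies, so the division of reads between them is uncertain. The heat shock score correlated with each member, from 0.491 (Zfp36) to 0.722 (Fosb). NF-kB target and cytokine genes were positive in 14 of 16 cases (median 0.316), led by Socs3, Nfkbiz (0.507), Ptgs2 (0.470) and Il6 (0.428). Their score was closest to Zfp36 (r = 0.737, rho = 0.714) and least close to Fosb (0.225). Hypoxia genes were positive in 7 of 9 cases (median 0.247), with Slc2a1, Ldha (0.477), Adm (0.363) and P4ha1 (0.319) ahead.

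Targets of ATF4 and CHOP were divided, with 2 of 10 positive, 5 negative and a median of -0.0843. Their score was positively correlated with Btg2 (r = 0.215) and Ier2 (0.169). It was negatively correlated with Zfp36 (-0.258), Fosb (-0.214), Nr4a1 (-0.156), Fos (-0.117) and Jun (-0.116). It was not called with Junb, Egr1 or Dusp1. Ddit4 had a mean r of 0.234 and Ddit3 of 0.136, while Trib3 (-0.139) and Chac1 (-0.102) were below 0. Clock and glucocorticoid response genes were divided, 5 of 11 positive and 3 negative, between Per1 (0.615), Nr1d1 (0.346) and Cry1 (0.288) on the one side and the glucocorticoid target Tsc22d3 (-0.320) on the other.

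Each list of cell type markers had a lower median of mean r than the hypoxia genes (0.247). Macrophage genes came nearest, with 5 of 6 positive and a median of 0.221. Among beta cell genes 2 of 6 were positive and 2 negative, Ins1 having a mean r of 0.215, Ins2 of 0.209 and Pdx1 of -0.139. The division of reads between Ins1 and Ins2, which are close copies, is uncertain. Alpha cell genes were positive in 0 of 4 cases and negative in 2, with Gcg at -0.0776, and of the delta and PP genes Sst (0.111) was positive and Hhex (-0.111) negative. Acinar genes were positive in 0 of 8 cases, duct genes in 2 of 5 (Spp1 0.195), endothelial genes in 3 of 6 (Flt1 0.415, Cdh5 0.318) and stellate genes in 4 of 6 (Col1a1 0.151). With at least 5 members 1 duct gene, Krt7 (-0.241), and 2 endothelial genes, Kdr (-0.145) and Tek (-0.0768), were negatively correlated, and 0 acinar and 0 stellate genes were. Krt7, Kdr and Tek were named after their values were seen. The 1 measured lymphocyte gene, Cd79a, had a mean r of 0.0832, and Cd3e and Cd3d were each at 0 in at least 150 libraries.

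The comparison of females with males, with the band as a term, asked whether the sexes differed. Btg2 and Ier2 were lower and Nr4a1 and Zfp36 higher in females (edgeR quasi-likelihood test, Benjamini-Hochberg adjustment). These 4 of 10 genes compare with 50.6% of the 16927 genes tested (21.7% higher and 28.8% lower in females), a share near the background. The median difference was -0.09 on the log2 scale over the 10 genes and -0.01 over all genes.

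Btg2 ran from 87.6 to 339.1 CPM in females, with a mean of 154.8 ± 41.7 (SD), and from 77.6 to 389.9 in 190 males, with a mean of 171.5 ± 48.7. The difference, female minus male, was -0.15 ± 0.04 (log2, SE, adjusted p = 0.000223). Ier2 ran from 5.21 through 15.3 to 63.7 CPM in females and from 4.89 through 17 to 74.8 in males. Its difference was -0.16 ± 0.06 (adjusted p = 0.0137). Nr4a1 ran from 9.62 through 65.6 to 383.8 CPM in females and from 11.45 through 58.3 to 283.6 in males, and differed by 0.20 ± 0.08 (adjusted p = 0.0324). Zfp36 ran from 24 through 55.9 to 132.1 CPM in females and from 18.1 through 47.9 to 160.4 in males, and differed by 0.13 ± 0.05 (adjusted p = 0.0328). For all 4 genes the sexes overlapped over nearly their whole ranges. Sex carried 3.37% of the variance of Btg2 between mice and less of every other member.

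The other 6 did not pass: Fos at -0.18 ± 0.09 (adjusted p = 0.0665), Egr1 at -0.15 ± 0.07 (0.0668), Junb at -0.15 ± 0.08 (0.105), Jun at 0.05 ± 0.06 (0.515), Fosb at 0.09 ± 0.12 (0.566) and Dusp1 at -0.03 ± 0.05 (0.638). In single bands the differences were smaller than their errors in many cases. Btg2 passed in band 2 (-0.25, adjusted p = 0.00806) and not in bands 1 (-0.16, 0.181), 3 (-0.02, 0.881) or 4 (-0.19, 0.0533). Ier2 passed in band 2 (-0.31, 0.0483), where bands 1, 3 and 4 gave -0.07, -0.07 and -0.17. Nr4a1 and Zfp36 passed in no single band, at 0.25, 0.05, 0.38 and 0.13 for Nr4a1 and 0.21, 0.05, 0.22 and 0.03 for Zfp36. Fos passed in band 4 (-0.38, 0.0366). Within each band the female numbers came before the male ones, except for 1 female of band 2 (DO-191), so sex and number order divided the mice of a band almost alike and cannot be told apart.

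**Figure D5:**
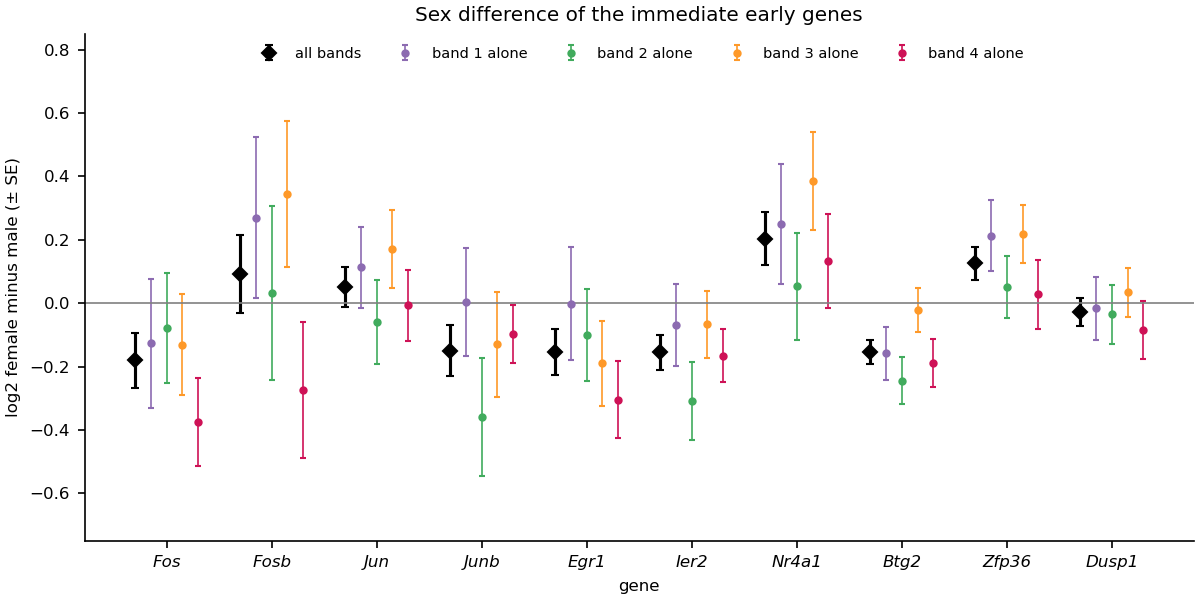
Log2 difference, female minus male, of each immediate early gene with its standard error, over all bands (black diamonds) and in each number band alone (coloured points). Fos, Egr1, Ier2 and Btg2 lie below 0 and Nr4a1 and Zfp36 above 0 in all 5 fits, and most bars of single bands reach towards or across 0.

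A sex difference that varied between bands was called for none of the 10 (0 genes, adjusted p from 0.533 to 0.935), against 1.09% of all genes. The spread between mice was also compared by sex, as absolute deviations of log2 CPM from the median of sex and band. None of the 10 was called (0 genes, limma, adjusted p from 0.155 to 0.975), against 4.91% of the 14332 genes, nearly all of which were wider in males (4.81%, against 0.0907% wider in females). At an unadjusted p under 0.05 the interaction gave 0 of the 10 (edgeR, smallest 0.2) and the spread 1, Zfp36 (limma, 0.0179), named after its value was seen. limma-voom gave 0 of the 10 for the interaction as well.

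Adding the 6 cell type scores named above to the sex model left Ier2 called (-0.16, adjusted p = 0.0207) and not Btg2 (-0.08, adjusted p = 0.110), Nr4a1 (0.16, 0.151) or Zfp36 (0.09, 0.171). Endothelial markers were lower in females (6 of 6), and of the macrophage markers Cd68 and Csf1r were higher and C1qa lower. The endocrine markers differed more. Alpha cell genes were higher in females (4 of 4, median 0.74, Gcg 1.05), and so were delta and PP cell genes (3 of 3, median 0.40, Sst 0.50), while beta cell genes were lower (4 of 6, Ins1 -0.40, Ins2 -0.33). Summed alpha cell genes ran from 6111 through 23830 to 71990 CPM in females and from 1773 through 11270 to 48190 CPM in males. Summed beta cell genes ran from 85080 through 131500 to 220200 CPM in females and from 87510 through 157800 to 286400 CPM in males. These endocrine cell types are not among the 6 scores of the fit, and their part in the sex differences was not tested.

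The sex counts of related lists are read against 21.7% of all genes higher and 28.8% lower in females. Of these lists, 5 of 9 other AP-1 genes were higher in females and 0 lower, among them Batf (0.64), Jdp2 (0.28), Fosl1 (0.28) and Mafg (0.09). Primary response genes were divided, 8 higher and 9 lower of 37, with Npas4 (0.43) and Fbxo33 (0.11) higher and Zfp36l1 (-0.21) and Ppp1r15a (-0.20) lower. Among the MAP kinase feedback genes Spry2 (0.16) and Spred2 (0.08) were higher and Dusp6 (-0.18) and Spry4 (-0.18) lower. Heat shock genes were lower for Hspb1 (-0.43), Hspa1a (-0.35) and Hspa1b (-0.35) and higher for Hspa8 (0.19). NF-kB genes were higher in 6 of 16 cases and lower in 2. Hypoxia genes were higher in 0 of 9 cases and lower in 6, with Vegfa at -0.15 and Pdk1 at -0.36. Upstream regulators were higher in 5 of 16 cases and lower in 2. Clock and glucocorticoid response genes were higher in 4 of 11 and lower in 2, and EGR and NR4A relatives higher in 1 of 6 and lower in 1. Targets of ATF4 and CHOP were lower in 10 of 11, with Trib3 at -0.73 and Chac1 at -0.64. Across mice the score of this list had r of both signs with the members, as given above. Its part in the sex differences of the members was not tested.

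The number bands differed far more than the sexes. All 10 genes were called for a difference between bands, as were 87.9% of all genes. Junb had medians of 30.9, 26.1, 35.7 and 249.4 CPM in bands 1 to 4, and the lowest mouse of band 4, at 116.7 CPM, was above most mice of the other bands, whose highest mouse reached 158.9 CPM in band 1, 133.2 in band 2 and less in band 3. Ier2 had medians of 13.9, 11.4, 15 and 41.2 CPM. Jun had 66.5, 64, 82.2 and 227.4 CPM. Band 4 overlapped the other bands little for Junb and more for Ier2 (lowest mouse of band 4 at 24.3 CPM, highest of the others at 40.8) and Jun (74.3 and 248.3 CPM).

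Between band 4 and band 1 the log2 difference was 2.84 for Junb, 1.64 for Jun, 1.60 for Ier2, 1.26 for Fosb and 1.02 for Nr4a1. Zfp36 (0.66), Egr1 (0.64), Fos (0.53) and Dusp1 (0.52) differed less, and Btg2 was at -0.14. Junb stood at the 99.7th percentile of the tested genes for this difference. The median over the 10 was 0.84, against -0.03 over all genes. Bands carried 74.0% of the variance of Junb between mice, 64.9% for Ier2 and 57.7% for Jun, and 8.23% to 31.2% for the other 7. Band 4 also had the shallowest libraries, and the difference between band 4 and band 1 rose with the GC content of transcripts, with a rho of 0.77 across the 10 genes and 0.746 across 16867 genes (genes share libraries and are not independent). Junb and Ier2 had the highest GC of the 10 (62.6% and 60.9%) and Btg2 the lowest (49.7%). The part of depth and GC in the band differences was not tested. In the deposited variance-stabilised values no gene differed between bands by limma (0 genes after adjustment and 0 at an unadjusted p under 0.05, the smallest being 0.383). There the band 4 difference of Junb was 0.01 and that of Jun 0.01 on their log2-like scale. Even without band differences, some of 16927 genes would fall under the unadjusted threshold of 0.05 in limma. The outcome was thus fixed before the test, so these values cannot show whether the bands differ. How they came to lack band differences was not tested. All 45 pairs stayed positive and called on those values (median r 0.639).

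Neighbouring mice were compared through 350 pairs of consecutive numbers within a sex and band. Egr1 alone of the 10 was called (r = 0.224, one-sided permutation p = 1e-05, adjusted p = 0.000174), against 31.7% of all genes. That placed Egr1 at the 94.8th percentile, with a median r over all genes of 0.052. Fos, its closest gene, had r = 0.0733 (adjusted p = 0.0996), and the other 8 genes lay between -0.0537 (Nr4a1) and 0.0251 (Junb). What consecutive numbers share is not stated in the labels, and the difference between Egr1 and Fos was not tested.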

How the data were processed

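Islet RNA was measured in 1 library per mouse. The deposited estimated counts per gene were not scaled between libraries by the authors, and 67.7% of them are whole numbers (tolerance 0). The deposited variance-stabilised values are on a log2-like scale. Per the submitters' processing notes the build was GRCm38 and DESeq2 was used (no version). For the aligner, the counter and strand nothing is stated in the labels. Gene positions, deposited in megabases and printed here in bases, are from the deposited gene table.

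Estimated counts were rounded. Genes were filtered with filterByExpr by sex (16927 left) and tested with edgeR 4.0.16 (R 4.3.3): TMM, quasi-likelihood F test, terms for sex and number band, Benjamini-Hochberg adjustment over all tested genes, threshold 0.05. Standard errors are the absolute log2 difference over the square root of F. Spread was tested with limma 3.58.1 on absolute deviations. Correlations used log2 CPM (prior count 2) of 14332 genes with mean CPM of at least 1, minus the mean of each sex and band, with 100000 two-sided permutations within sex and band (Python 3.11.15, NumPy 2.4.6), adjusted over all gene-member pairs. A score is the mean log2 CPM of those genes of a list that passed the filter. Sex came from the titles, and a mouse number names one library only. No 2 libraries were identical (0 pairs), and the closest pair differed far beyond counting noise (chi-square per gene 74). On simulated counts for 16927 genes 24% of 50 genes given a 1.1-fold sex difference were called, and 100% of those given 1.25-fold, with 9 false calls.

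Members and lists were chosen with earlier results of these data known. Besides the members, the text names the 10 genes with the highest and the 5 with the lowest mean r, the 2 closest genes of each member, and up to 4 genes of each list by adjusted p for sex and by mean r, and genes that overlap a member. Genes with placeholder symbols were left out of these ranks. Alternatives used DESeq2 1.42.0, limma-voom, other size factors, filters, covariates, bands and the deposited log2-like values. Leaving out mouse DO-246 was added after its values were seen.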

Additional observations from a re-analysis of the deposited data

How the results depend on the processing

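All 45 pair correlations were positive and called under each of the 8 alternatives tried, with medians of r from 0.601 (cell type scores removed) to 0.683 (band means kept). Of the 10 closest genes 9 or 10 were shared under each alternative but the one that kept the band means, which shared 4. The sex calls were less firm. Over all genes the count of 8561 fell to 2873, 4687, 2632 and 4247 in bands 1 to 4 alone, where fewer mice were tested. Among the members Ier2 (adjusted p = 0.212), Nr4a1 (0.0701) and Zfp36 (0.0898) were lost without the band term, Ier2 without band 4 (0.0728), and Btg2, Nr4a1 and Zfp36 with cell type scores added; the cause was not tested. The DESeq2 Wald test, limma-voom, DESeq2 size factors, no filter, the deposited values and a term for total count kept all 4. The count of genes that differed between bands, 14875, fell to 6001 without band 4. It was 0 in the deposited values, which cannot test the bands. Without band 4, Btg2 was higher in the last band than in band 1 (0.13) in place of lower, because band 3 took the place of band 4, and Fosb was no longer called (0.05, adjusted p = 0.0713). Interactions fell from 1.09% of genes to 8 genes without band 4. The share of genes that differed in spread, 4.91%, was 2.95% with deviations from the sex median alone and 1.16% without band 4. No paired analysis was possible because each mouse number occurs once, so the sexes share none. Counting error made up at most 1.38% of the variance within sex and band (Ier2). Each mouse gave one library, so technical error and differences between animals cannot be told apart.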

Other observations

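The order of the 10 genes per kilobase changed with the number band. Btg2, the antiproliferative gene, led in bands 1 to 3 with medians of 55, 52.2 and 66.5 CPM per kilobase, followed by Fos with 26.1, 25.6 and 41.2. In band 4 Junb led with 137.9 CPM per kilobase, ahead of Jun with 71.3, and Btg2 was the third with 52.5. Junb had been lower in band 1 with 17.1 and in bands 2 and 3 with 14.4 and 19.8. Ier2 was the last in bands 1 to 3 and had 27.1 in band 4, where Zfp36 was the last with 25.1. The part of depth and GC content in this change was not tested.

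Against the trend of dispersion with level that edgeR fitted over all genes, the 10 genes were variable as well. Of 11108 genes with a mean of at least 5 CPM, ranked without a test, Fosb stood at percentile 98.4 with a dispersion 10.4 times its trend. Fos was at percentile 97.2 (5.18 times), Nr4a1 at 97 (4.83 times), Junb at 96.8 (4.59 times) and Btg2, the lowest of the 10, at 85.5 (1.14 times). Between 3 and 5 mice of each sex and band had at least 5 genes in the top 10%, and between 2 and 5 had at least 5 in the bottom 10%. These 10% cuts were made within each sex and band, so every group supplies such mice largely by definition.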
